A study of Rattus norvegicus with 18 samples.

Results

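Peroxisomes are small organelles that shorten very long chain and branched fatty acids, begin the synthesis of ether lipids and break down hydrogen peroxide. Their proteins are made in the cytosol and imported by peroxins, the products of the Pex genes. Myelin is rich in plasmalogens, the ether phospholipids whose first steps are peroxisomal, and inherited defects of peroxisomes damage white matter in people. The 36 genes described here were chosen by symbol: Pex genes with a numbered name, ABCD transporters, and enzymes of peroxisomal beta-oxidation, alpha-oxidation, ether lipid synthesis and peroxide removal. They were represented by 46 of 31142 probe sets, and 40 of these, for 32 genes, passed the filter on low values. Acot4, Acox2, Acox3 and Ehhadh did not pass it.

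The study compared O4+ cells with A2B5+ cells, sorted by flow cytometry from whole brains of 7-day-old male rats. Each of the 4 O4+ and 5 A2B5+ replicates came from a litter of 10 pups, so each value is a pool of animals, and the labels name no strain, genotype or treatment. O4 recognises sulfatide and related lipids on late progenitors and oligodendrocytes, and A2B5 recognises gangliosides of glial progenitors and some neurons. Each replicate was hybridised to both of 2 Affymetrix array types, named A and B below. The source label of the array B samples reads whole brain, while their description speaks of sorted cells.

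Values are the ratios deposited by the authors. For most probe sets the median of the 9 ratios on an array type is exactly 1, so a ratio compares arrays within a probe set and says nothing about levels between genes. Differences are log2 ratios, O4+ minus A2B5+, and each ± is the standard error from limma, fitted to all 11982 tested genes. A gene was called at an adjusted p under 0.05. On array A the median over tested probe sets was 0.17 higher in O4+ than in A2B5+ arrays, and on array B 0.0024 higher. The median difference over all genes was 0.14. Further scalings were therefore run, one centring each array on its median and one, chosen after seeing the data, shifting each array by its probe sets with a median ratio under 1. These low probe sets lay 0.33 higher in O4+ arrays on array A and 0.067 higher on array B.

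The labelled populations differed in cell type markers. Of 11 tested genes of mature oligodendrocytes, 11 were higher in O4+ cells, and their mean log2 ratio ran from 3.96 to 4.32 in O4+ arrays, against -0.92 to -0.66 in A2B5+ arrays. Of 6 genes listed for progenitors, 2 (Sox10 and Olig1) were higher and 4 (Pdgfra, Cspg4, Ptprz1 and Cspg5) lower. Genes of astrocytes and radial glia (8 of 11), microglia (9 of 10), endothelial and mural cells (7 of 9), mast cells (6 of 6) and dividing cells (6 of 6) were lower and none was higher, while 6 of 10 neuronal genes were lower and 3 higher. The part of these other cell types in the differences below was not tested. In sorted bulk RNA, a change in the share of a cell type and a change of RNA per cell cannot be told apart.

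Most tested peroxisome genes were higher in O4+ cells. By limma, 20 of 32 were called higher, against a background of 28.8% of all genes, and 1 was called lower, against 17.8%. Their median log2 difference was 0.60, where that of all genes was 0.14. All O4+ arrays lay above all A2B5+ arrays for 17 of the 32 genes, a pattern found in 27.6% of all genes, and below them for 1, found in 13.5%. With arrays centred the counts were 17 higher and 2 lower, against 18.7% and 20.4% of all genes, and scaled on low probe sets 15 higher and 4 lower, against 13.0% and 25.4%. The mean log2 ratio of the 32 genes was close to uniform within each population, from 0.39 to 0.49 in O4+ arrays and from -0.18 to -0.13 in A2B5+ arrays.

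**Figure D1:**
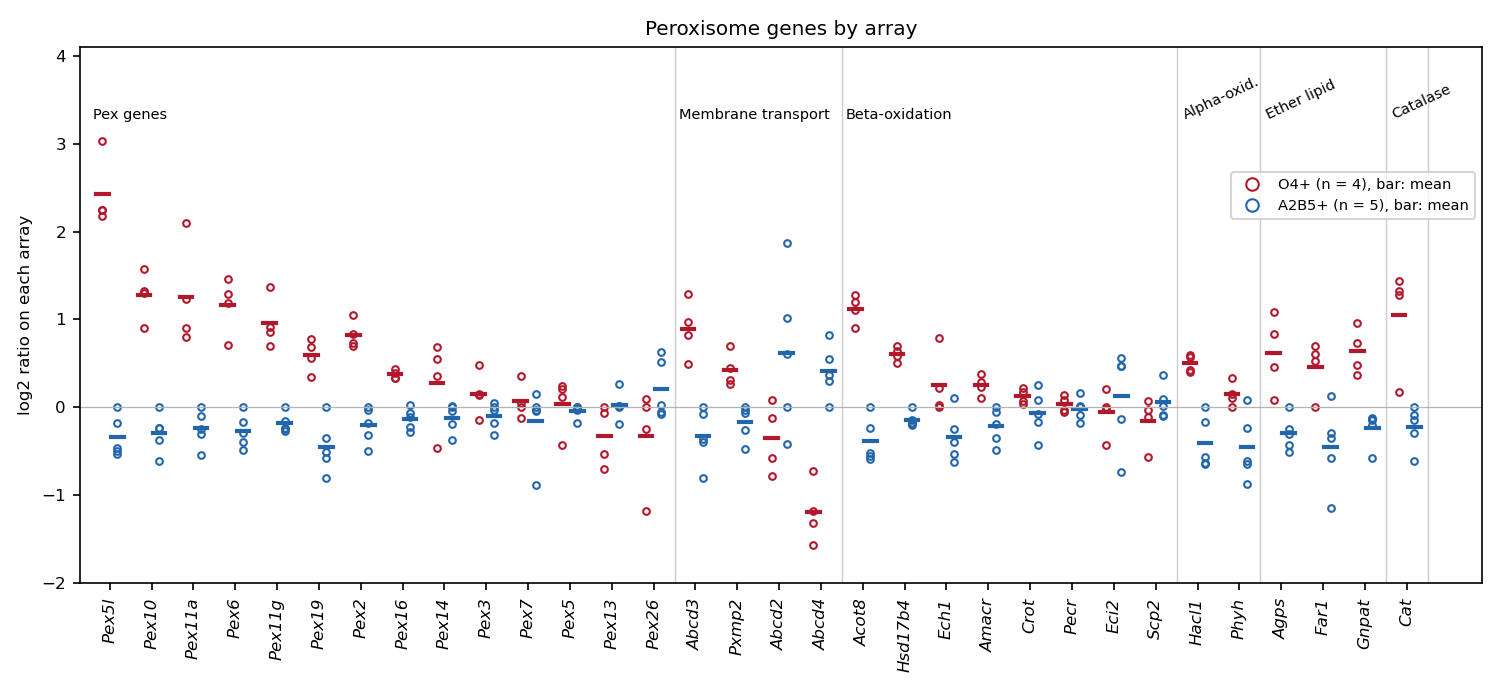
Log2 ratio of each of the 32 tested peroxisome genes on every array, grouped by role (x axis: gene; y axis: log2 ratio; circles: replicates; bars: means). The 4 O4+ arrays (red, left) lie above the 5 A2B5+ arrays (blue, right) for 17 genes, and below them for Abcd4.

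**Figure D2:**
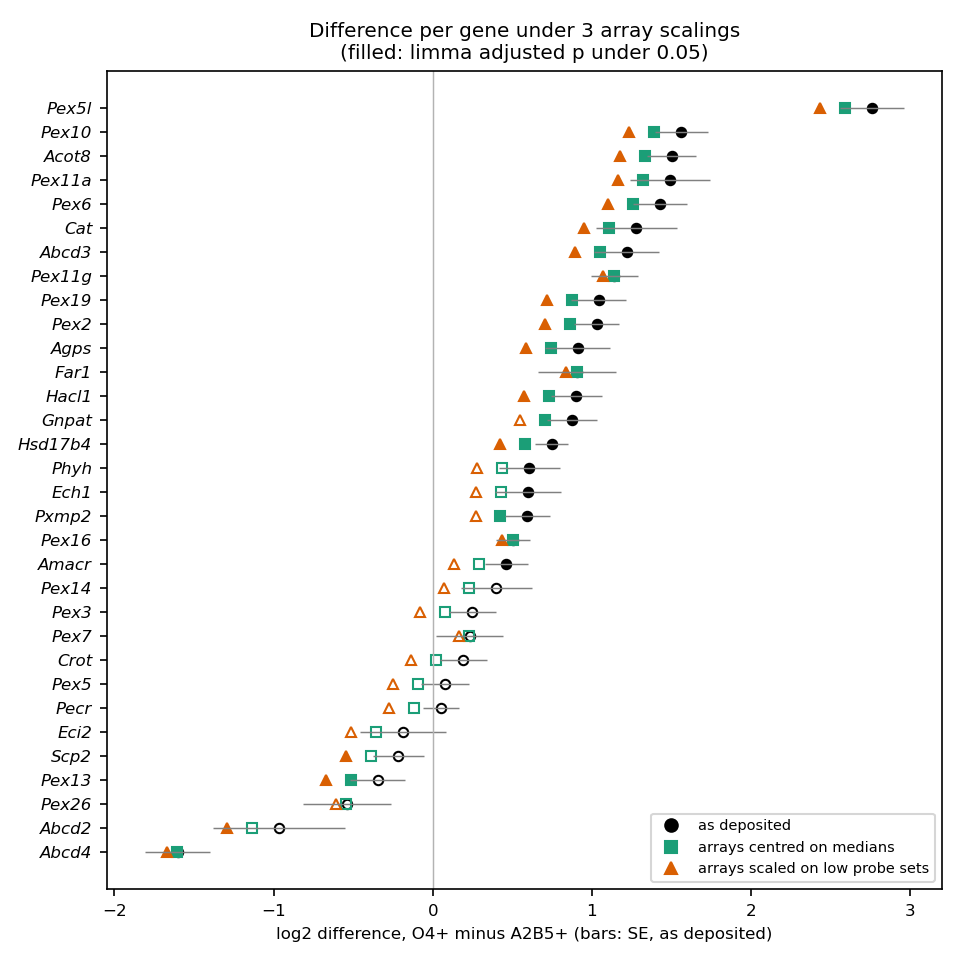
Log2 difference, O4+ minus A2B5+, of each gene (rows, ordered by the difference in the deposited values) under the deposited scale, with arrays centred on their medians, and with arrays scaled on low probe sets. Filled symbols mark a limma adjusted p under 0.05 and bars are standard errors of the deposited scale. The number called higher was 20, 17 and 15.

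Promoters of 5 genes are shown, chosen after their values were seen. They are 4 of the genes with the largest rises in O4+ cells, and Abcd4, the 1 gene called lower on the deposited scale. The sequences run from 250 bases before to 50 after the gene start (RefSeq, build GRCr8). Capitals mark matches on either strand to the nuclear receptor half-site AGGTCA, its direct repeat (GGTCA, any base, then AGGTCA, after any first base), the GC box GGGCGG or the CCAAT box. The direct repeat contains the half-site, and all motifs were chosen after the sequences had been read.
Pex10 promoter (GRCr8, chr5:170909886-170910185, plus strand): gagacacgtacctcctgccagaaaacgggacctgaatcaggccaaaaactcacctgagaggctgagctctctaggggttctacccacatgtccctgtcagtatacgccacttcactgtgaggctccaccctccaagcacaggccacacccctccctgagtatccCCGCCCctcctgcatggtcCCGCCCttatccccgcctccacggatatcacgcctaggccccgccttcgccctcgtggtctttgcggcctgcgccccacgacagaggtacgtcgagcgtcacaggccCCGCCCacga
Acot8 promoter (GRCr8, chr3:173962139-173962438, minus strand): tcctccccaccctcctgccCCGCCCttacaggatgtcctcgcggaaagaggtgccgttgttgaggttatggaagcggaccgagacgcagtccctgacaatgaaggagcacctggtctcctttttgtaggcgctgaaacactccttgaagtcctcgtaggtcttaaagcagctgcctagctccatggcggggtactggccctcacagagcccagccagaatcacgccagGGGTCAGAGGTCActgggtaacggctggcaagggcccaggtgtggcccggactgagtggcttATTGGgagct
Pex11a promoter (GRCr8, chr1:143096442-143096741, minus strand): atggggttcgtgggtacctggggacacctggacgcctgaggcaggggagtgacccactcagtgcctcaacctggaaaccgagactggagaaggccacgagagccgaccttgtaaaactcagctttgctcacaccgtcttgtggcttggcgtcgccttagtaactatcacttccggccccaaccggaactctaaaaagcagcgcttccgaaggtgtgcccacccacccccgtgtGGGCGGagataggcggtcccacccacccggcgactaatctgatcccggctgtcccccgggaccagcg
Cat promoter (GRCr8, chr3:110329477-110329776, minus strand): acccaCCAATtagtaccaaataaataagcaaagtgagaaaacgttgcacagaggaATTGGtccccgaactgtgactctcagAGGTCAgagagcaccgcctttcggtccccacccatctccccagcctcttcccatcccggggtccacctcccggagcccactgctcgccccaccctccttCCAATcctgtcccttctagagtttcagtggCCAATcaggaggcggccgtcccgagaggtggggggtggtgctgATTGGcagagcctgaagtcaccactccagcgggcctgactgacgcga
Abcd4 promoter (GRCr8, chr6:109991934-109992233, minus strand): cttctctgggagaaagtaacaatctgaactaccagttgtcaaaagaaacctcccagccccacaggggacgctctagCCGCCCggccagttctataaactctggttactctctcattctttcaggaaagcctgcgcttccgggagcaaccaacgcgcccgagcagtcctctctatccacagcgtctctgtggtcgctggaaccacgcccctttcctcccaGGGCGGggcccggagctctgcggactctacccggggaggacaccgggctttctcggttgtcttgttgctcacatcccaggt

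RefSeq promoters were matched for 32 of the 36 genes. These are not the 32 tested genes: the untested Acot4, Acox2, Acox3 and Ehhadh are included, and Pex2, Pex5l, Pex6 and Ech1 are missing. The half-site was found in 9 of the 32 matched promoters (28.1%), that of Acot4 among them. It was found in 12.1% of the promoters of 9956 tested genes and 15.7% of all 27457. The direct repeat, a spacing that PPAR receptors with their RXR partners are known to bind, was found in 1 of the 32 promoters, that of Acot8, starting at base 229 of the 300, and in 0.10% of promoters of tested genes. GC boxes stood in 25 of the 32 (78.1%, against 60.9% of tested genes) and CCAAT boxes in 15 (46.9%, against 37.6%). The Cat promoter held 5 CCAAT boxes and Pex10 3 GC boxes. These matches describe the letters in the window and say nothing about binding in these cells.

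Pex genes, which build the organelle and import its enzymes, gave 8 calls higher and 0 lower among 14 tested, where 28.8% of all genes were higher and 17.8% lower. With arrays centred, 8 were called higher and 1, Pex13, lower, against 18.7% and 20.4% of all genes. Scaled on low probe sets the counts were the same, with Pex13 again lower, against 13.0% and 25.4%. The largest difference belonged to Pex5l, a relative of the import receptor Pex5 that in brain is best known as TRIP8b, a partner of HCN channels. On array A its ratios were 4.73, 4.76, 4.52 and 8.19 in O4+ replicates 1 to 4, against 0.711, 1, 0.691, 0.724 and 0.884 in A2B5+ replicates 1 to 5. The populations did not overlap, and O4+ replicate 4 stood above the other O4+ arrays. The difference was 2.76 ± 0.20 (adjusted p = 7.5e-06). Without Pex5l, 19 of 31 genes were called higher and 1 lower.

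Pex10 and Pex2 encode RING-type ubiquitin ligases of the peroxisomal membrane that return the import receptors to the cytosol. Pex10 had ratios of 1.86, 2.98, 2.46 and 2.50 in O4+ cells, against 0.849, 0.851, 0.774, 0.657 and 1 in A2B5+ cells. Every O4+ value exceeded every A2B5+ value, and the difference was 1.56 ± 0.17 (2.95-fold, adjusted p = 7.9e-05). Pex2 rose by 1.03 ± 0.14 on array A (adjusted p = 3.1e-04). Its O4+ ratios there ran from 1.63 to 2.07, against 0.710 to 1 in A2B5+ cells.

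Pex6 is an ATPase that takes part in pulling import receptors out of the membrane, and Pex26 anchors it there. Pex6 ratios were 1.63, 2.27, 2.76 and 2.45 in O4+ cells, against 0.716, 0.889, 0.820, 0.763 and 1 in A2B5+ cells. It rose by 1.43 ± 0.17 (adjusted p = 1.5e-04) with no overlap. Its anchor Pex26 had a difference of -0.54 ± 0.27 (adjusted p = 0.13), with O4+ ratios from 0.442 to 1.07 overlapping the A2B5+ range of 0.946 to 1.55.

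The Pex11 family elongates peroxisomes before they divide. Pex11a had ratios of 2.34, 1.87, 1.74 and 4.29 in O4+ cells, against 0.687, 0.813, 1, 0.936 and 0.845 in A2B5+ cells. All O4+ arrays were higher, replicate 4 most, and the difference was 1.49 ± 0.25 (adjusted p = 0.0012). A further Pex11a probe set lay below the filter, with ratios of 0.925 to 1.12 in O4+ cells and 0.608 to 0.856 in A2B5+ cells, and with it averaged in the difference was 0.99. Pex11g, measured on array B, had ratios of 1.88, 1.62, 2.58 and 1.82 in O4+ cells, against 0.850, 1, 0.845, 0.831 and 0.896 in A2B5+ cells. It rose by 1.14 ± 0.15 (adjusted p = 2.4e-04), again without overlap.

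Pex19, Pex3 and Pex16 insert membrane proteins into peroxisomes. Pex19, the soluble chaperone, rose by 1.04 ± 0.17 (adjusted p = 0.0010), with O4+ ratios of 1.27 to 1.72, against 0.572 to 1 in A2B5+ cells. Pex16 rose by 0.50 ± 0.11, averaged over 2 array B probe sets that differed from each other. One of them gave 1.01 ± 0.12, and the other, whose log2 ratios varied little over the 9 arrays (SD 0.061 about the pattern of low probe sets), gave 0.0030 ± 0.067. Pex3, the docking receptor for Pex19, had a difference of 0.25 ± 0.15 (adjusted p = 0.19).

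The receptors and the docking proteins of matrix import were not called. Pex5 carries enzymes with a C-terminal signal. Its ratios were 1.18, 0.742, 1.15 and 1.09 in O4+ cells, against 0.978, 0.884, 1.00, 1 and 0.988 in A2B5+ cells. O4+ replicate 2 lay below all A2B5+ arrays and the other O4+ arrays above them. The difference was 0.08 ± 0.15 (adjusted p = 0.69), and its sign turned with arrays centred (-0.091 ± 0.16) or scaled on low probe sets (-0.25 ± 0.18). Pex7 carries enzymes with an N-terminal signal, among them Agps and Phyh. Its ratios were 1.28, 1.04, 1.00 and 0.917 in O4+ cells, against 0.974, 1.11, 0.982, 1 and 0.543 in A2B5+ cells, and the populations overlapped (0.23 ± 0.21, adjusted p = 0.39).

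Pex14 and Pex13 form the docking site in the membrane. Pex14 had ratios of 1.28, 0.726, 1.47 and 1.61 in O4+ cells, against 0.776 to 1.01 in A2B5+ cells. Its difference was 0.40 ± 0.22 (adjusted p = 0.16), and without O4+ replicate 2 it was called at 0.65 ± 0.14 (adjusted p = 0.0051), as it was with array weights (0.50 ± 0.15, adjusted p = 0.019). O4+ replicate 2 also had the highest microglia marker mean of the O4+ arrays, 0.057 against -1.35 to -0.65 in the others. It was also highest for endothelial and mural genes (-0.84, next -0.996) and dividing cell genes (-1.59, next -1.79). For neuronal (-0.33, next -0.38) and mast cell genes (-1.51, next -1.53) it was highest by less. For astrocyte and progenitor genes another O4+ array was highest. What these means have to do with Pex14 was not tested. Pex13 had a difference of -0.35 ± 0.17 (adjusted p = 0.12), and was called lower with arrays centred (-0.52 ± 0.17, adjusted p = 0.040) and scaled on low probe sets (-0.67 ± 0.18, adjusted p = 0.014).

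Genes measured on both array types allow a check within the data. Pex5l was also higher in O4+ cells on array B, with ratios of 1.23, 2.63, 3.41 and 1.52, against 0.794 to 1 in A2B5+ cells (1.21 ± 0.28, adjusted p = 0.014 over the probe sets of array B). Pex2 was higher there by 0.79 ± 0.17 (adjusted p = 0.011). The array B probe set of Pex5 hardly varied (0.10 ± 0.07, adjusted p = 0.32). Over all peroxisome genes, 19 of 29 tested probe sets on array A were called, all of them higher, against 32.5% called higher and 47.2% called in either direction among all probe sets. On array B 6 of 11 were called, against 23.7%: 5 were higher, against 9.93%, and 1 was lower, against 13.8%.

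**Figure D3:**
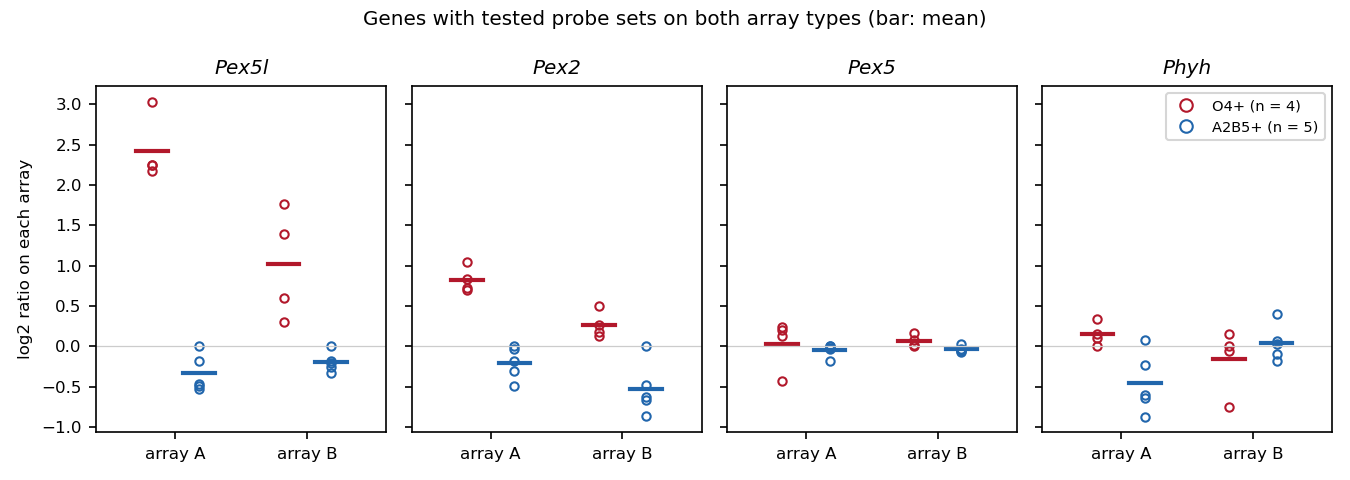
Log2 ratio on each array (y axis) of the 4 genes with a tested probe set on both array types (x axis), with O4+ arrays in red on the left and A2B5+ arrays in blue on the right; bars are means. Pex5l and Pex2 were higher in O4+ cells on both types, and Phyh was higher on array A only, with a difference of -0.20 ± 0.20 on array B.

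Of the 3 genes of ether lipid synthesis, 3 were called higher in O4+ cells, against 28.8% of all genes. With arrays centred 3 were called higher, against 18.7%, and scaled on low probe sets 2, against 13.0%. Gnpat, which acylates dihydroxyacetone phosphate in the first step, was measured by 2 probe sets. One had ratios of 1.99, 1.60, 1.57 and 1.88 in O4+ cells, against 0.890, 0.916, 0.886, 0.843 and 1 in A2B5+ cells. The other had 1.90, 1.23, 1.07 and 1.46 in O4+ cells, against 0.926, 0.904, 0.854, 1 and 0.448 in A2B5+ cells. Neither overlapped, and their mean rose by 0.87 ± 0.16 (adjusted p = 0.0017). Scaled on low probe sets it was 0.55 ± 0.20 and no longer called (adjusted p = 0.051).

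Agps exchanges the acyl chain for a fatty alcohol and so creates the ether bond. Its ratios were 1.38, 2.12, 1.06 and 1.78 in O4+ cells, against 0.842, 0.812, 0.706, 0.745 and 1 in A2B5+ cells. The O4+ arrays spread widely yet all lay above the A2B5+ arrays, by 0.91 ± 0.20 (adjusted p = 0.0055), or 0.58 ± 0.19 when scaled on low probe sets. Far1 makes the fatty alcohol and is the rate-limiting enzyme. On array B its ratios were 1.63, 1.53, 1.44 and 1 in O4+ cells, against 0.786, 0.816, 0.453, 0.672 and 1.09 in A2B5+ cells. The O4+ replicate 4 ratio lay below the highest A2B5+ ratio, and the difference was 0.91 ± 0.25 (adjusted p = 0.014).

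Of 8 tested beta-oxidation genes, 4 were called higher and 0 lower, against 28.8% and 17.8% of all genes. With arrays centred 2 were higher and 0 lower, against 18.7% and 20.4%. Scaled on low probe sets 2 were higher and 1, Scp2, lower, against 13.0% and 25.4%. Acot8, a thioesterase that releases fatty acids from their CoA esters, led with ratios of 2.29, 2.42, 1.88 and 2.16 in O4+ cells, against 0.847, 0.681, 0.668, 0.700 and 1 in A2B5+ cells. It rose by 1.50 ± 0.15 (2.83-fold, adjusted p = 5.7e-05) without overlap. Hsd17b4, the bifunctional enzyme of the middle steps, varied little within each population. Its ratios were 1.62, 1.50, 1.42 and 1.56 in O4+ cells, against 1, 0.886, 0.867, 0.902 and 0.884 in A2B5+ cells. The difference was 0.75 ± 0.10 (adjusted p = 3.5e-04), and 0.42 ± 0.13 when scaled on low probe sets (adjusted p = 0.027).

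Smaller calls in this pathway depended on the scale. Amacr, a racemase for branched-chain acyl-CoAs, rose by 0.46 ± 0.13 (adjusted p = 0.018), but its difference was 0.29 with arrays centred and 0.14 scaled on low probe sets, and neither was called. It was also not called without O4+ replicate 3 (adjusted p = 0.053). Ech1, an isomerase for unsaturated chains, rose by 0.60 ± 0.20 (adjusted p = 0.036), with O4+ replicate 2 at a ratio of 1.73 and the other O4+ arrays at 1.00 to 1.17, against 0.648 to 1.07 in A2B5+ cells. The Ech1 call ended with arrays centred, scaled on low probe sets, or without any of A2B5+ replicates 2, 3, 4 and 5 and O4+ replicates 1 and 2 (adjusted p from 0.057 to 0.36).

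Scp2 encodes the thiolase for branched chains together with a lipid carrier protein. Of its 2 probe sets, one had ratios of 1.02, 0.850, 0.782 and 1.10 in O4+ cells, against 1, 0.931, 0.916, 1.01 and 1.16 in A2B5+ cells. The other had 0.834, 1.14, 0.585 and 1 in O4+ cells, against 1.02, 0.937, 0.971, 1.13 and 1.43 in A2B5+ cells. Both overlapped, and their mean differed by -0.22 ± 0.16 (adjusted p = 0.29). Scaled on low probe sets Scp2 was called lower, at -0.54 ± 0.14 (adjusted p = 0.012). Crot, which hands shortened chains to carnitine, had a difference of 0.19 ± 0.15 (adjusted p = 0.30), the reductase Pecr 0.05 ± 0.11 (adjusted p = 0.72) and the isomerase Eci2 -0.19 ± 0.27 (adjusted p = 0.59).

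The enzymes below the filter belonged to this pathway. Acox2 and Acox3, oxidases for branched chains, had ratios of 0.644 to 0.694 and 0.537 to 0.586 in O4+ cells, against 0.478 to 0.665 and 0.404 to 0.507 in A2B5+ cells. About the pattern of low probe sets their log2 ratios varied with an SD of 0.068 and 0.034, where the median of such probe sets on array A was 0.066. The thioesterase Acot4 had 0.790 to 1.08 in O4+ cells and 0.567 to 0.736 in A2B5+ cells, with an SD of 0.10. Ehhadh, the other bifunctional enzyme, had 0.861, 1.39, 1.69 and 2.65 in O4+ cells, against 0.596, 0.599, 0.655, 0.815 and 0.788 in A2B5+ cells. It reached a ratio of 1 on only 3 of 9 arrays, all O4+, and varied about that pattern with an SD of 0.60.

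Alpha-oxidation removes a carbon from branched fatty acids such as phytanic acid. Hacl1, the lyase of this path, rose by 0.90 ± 0.16 (adjusted p = 0.0016), with O4+ ratios of 1.32 to 1.52, against 0.639 to 1 in A2B5+ cells. Phyh, the hydroxylase that starts it, had array A ratios of 1.12, 1.26, 1 and 1.07 in O4+ cells, against 1.06, 0.851, 0.655, 0.546 and 0.641 in A2B5+ cells. A2B5+ replicate 1 overlapped the O4+ arrays, and the difference of 0.61 ± 0.19 was called (adjusted p = 0.027). On array B the Phyh ratios were 0.962, 1.11, 1 and 0.595 in O4+ cells, against 1.32, 1.04, 1.02, 0.880 and 0.932 in A2B5+ cells, a difference of -0.20 ± 0.20. The call was lost with arrays centred or scaled on low probe sets, with both array types averaged (0.20 ± 0.18), and without any of A2B5+ replicates 3, 4 and 5 and O4+ replicates 1, 2 and 4 (adjusted p from 0.050 to 0.064).

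Cat encodes catalase, which removes the hydrogen peroxide that peroxisomal oxidases produce. Its ratios were 2.50, 1.13, 2.70 and 2.43 in O4+ cells, against 0.819, 0.656, 0.902, 0.938 and 1 in A2B5+ cells. Replicate 2 stood far below the other O4+ arrays while still above all A2B5+ arrays. The difference was 1.28 ± 0.26 (2.43-fold, adjusted p = 0.0031), and 1.57 without O4+ replicate 2.

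Of the 4 tested genes of the ABCD family and the membrane pore, 2 were called higher and 1 lower, against 28.8% and 17.8% of all genes. Their median difference was -0.18. With arrays centred the counts were the same, against 18.7% and 20.4%. Scaled on low probe sets 1 was called higher and 2 lower, against 13.0% and 25.4%. Abcd3, which takes up branched-chain and bile acid precursors, had ratios of 1.41, 2.45, 1.77 and 1.97 in O4+ cells, against 0.781, 0.571, 1, 0.951 and 0.764 in A2B5+ cells. It rose by 1.22 ± 0.20 (2.33-fold, adjusted p = 0.0011) with no overlap. The pore-forming protein Pxmp2 rose by 0.60 ± 0.14 (adjusted p = 0.0083), with O4+ ratios of 1.20 to 1.62, against 0.722 to 1 in A2B5+ cells. Scaled on low probe sets it was not called (0.27 ± 0.13, adjusted p = 0.14).

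Abcd2, a transporter of very long chain acyl-CoAs, ran lower on average in O4+ cells without passing the test. Its ratios were 1.06, 0.919, 0.670 and 0.583 in O4+ cells, against 0.749, 1.53, 3.64, 2.02 and 1 in A2B5+ cells. The A2B5+ arrays spread more than those of any other peroxisome gene (SD 0.89 on the log2 scale), and the populations overlapped (-0.96 ± 0.42, adjusted p = 0.081). Replicates 3 and 4, the highest A2B5+ arrays for Abcd2, also had the highest means of astrocyte genes (1.00 and 0.81) and of neuronal genes (1.61 and 1.45), whose part was not tested. In the other A2B5+ arrays these means were at most 0.53 and 0.48. Abcd2 was called lower without A2B5+ replicate 1 (-1.22 ± 0.37, adjusted p = 0.029), with array weights (adjusted p = 0.030) and scaled on low probe sets (adjusted p = 0.037).

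Abcd4 was the 1 gene called lower on the deposited scale. It shares the family name but is known as a lysosomal protein needed to release vitamin B12. Its array B ratios were 0.607, 0.441, 0.402 and 0.338 in O4+ cells, against 1, 1.77, 1.23, 1.46 and 1.29 in A2B5+ cells. Every O4+ array lay below every A2B5+ array, and the difference was -1.60 ± 0.21 (3.04-fold lower, adjusted p = 2.2e-04).

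Genes near these pathways were counted from lists of other peroxisomal proteins, ether lipid neighbours, mitochondrial beta-oxidation and regulators. Their counts stand against 28.8% of all genes called higher and 17.8% called lower, and their medians against 0.14. Of 37 other genes for proteins found in peroxisomes or acting with them, several of which also serve mitochondria, 15 (40.5%) were higher and 2 (5.41%) lower (median 0.37). Usp30, which removes ubiquitin at mitochondria and peroxisomes, rose by 2.12 ± 0.17. Peds1, the desaturase that forms the vinyl ether bond of plasmalogens, rose by 2.07 ± 0.16, with O4+ ratios of 3.82, 2.77, 3.79 and 3.88, against 1, 0.842, 0.670, 0.807 and 0.925 in A2B5+ cells. Nudt12, a hydrolase of NADH, rose by 1.72 ± 0.21. The ubiquitin ligase Trim37 fell by 0.92 ± 0.17 and the epoxide hydrolase Ephx2 by 0.63 ± 0.21.

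Among 13 genes next to ether lipids, 6 (46.2%) were higher and 2 (15.4%) lower, with a median of 0.17, close to that of all genes. Selenoi and Pcyt2, of ethanolamine phospholipid synthesis, rose by 2.18 ± 0.25 and 2.11 ± 0.18, and Agmo, which cleaves alkylglycerols, by 2.11 ± 0.20. The phospholipase Pla2g4a fell by 1.20 ± 0.34 and Tmem86a by 0.61 ± 0.19. In mitochondrial beta-oxidation 10 of 23 (43.5%) were higher and 0 lower, with the same median as all genes (0.14). The list was led by Acsl1 (2.28 ± 0.22), Echs1 (1.80 ± 0.16) and Hadh (1.22 ± 0.13). With arrays centred these counts were 9 and 2 for other peroxisomal genes, 6 and 4 for ether lipid neighbours, and 6 and 2 for mitochondrial beta-oxidation, against 18.7% and 20.4% of all genes. Scaled on low probe sets they were 8 and 5, 5 and 4, and 3 and 5 in the same order, against 13.0% and 25.4%, so that more genes of mitochondrial beta-oxidation were called lower than higher on that scale.

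Of 12 tested regulators 3 (25%) were higher and 1 (8.33%) lower (median 0.13), a share of higher calls and a median near those of all genes. The retinoid receptor Rxrg rose by 2.16 ± 0.32, the lysosomal regulator Tfeb by 2.03 ± 0.24 and the fatty acid receptor Pparg by 0.42 ± 0.14, while the coactivator Ppargc1a fell by 1.12 ± 0.16. The Pparg call ended with arrays centred (adjusted p = 0.10).

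**Figure D4:**
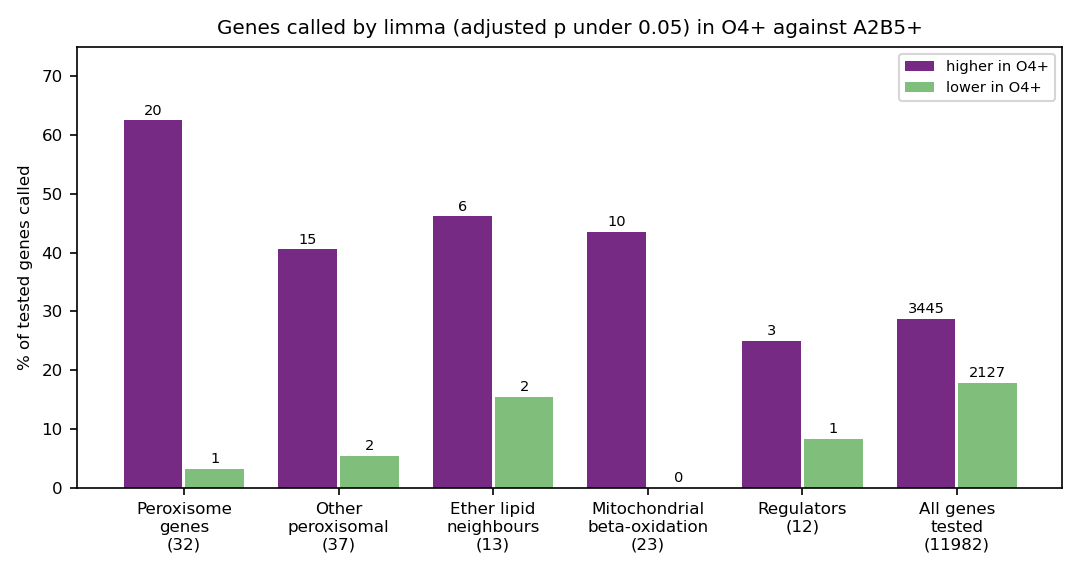
Share of tested genes called higher or lower in O4+ cells (y axis, percent; number of genes above each bar, number tested under each list). The peroxisome genes had 20 of 32 called higher, and all genes tested 3445 of 11982.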

How the data were processed

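Expression was measured in O4+ cells (n = 4) and A2B5+ cells (n = 5) on 2 array types. The submitters' processing notes name GCRMA and no version. The authors deposited linear ratios, and the step from GCRMA to a ratio is not described in the sources used here. Depth does not apply to arrays; their number limits the precision.

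Probe sets with a ratio of at least 1 on at least 4 of 9 arrays were tested (24234 in all). Symbols came from the platform annotation given for this work, and all 36 genes matched the reference by gene identifier with 0 symbols changed. Log2 of the deposited ratio was averaged over a gene's tested probe sets, array A before array B. O4+ was compared with A2B5+ using limma 3.58.1 in R 4.3.3 (lmFit, eBayes, two-sided) over all genes, with Benjamini-Hochberg adjustment, and per array type over all probe sets. The fit was tested on data simulated without array-wide shifts, so that test cannot address the array scale. P-values measure the spread between these replicates, and whether O4+ and A2B5+ replicates shared litters is not stated. Array values are shown for the 8 largest called rises, the 8 largest called falls (of which there was 1) and chosen genes of each pathway; other genes are given by ranges. Genes and lists were chosen with earlier results of these data known. Alternatives covered array scale, filter, replicate block, array weights, the choice of array type and leaving out each replicate. Probe sets with several symbols were left out of all gene values, and some genes of these pathways are not reported here.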

Additional observations from a re-analysis of the deposited data

Results flagged for a closer look

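Of 64 sets of replicates (32 genes in each population), 6 held an array far from the others by Dixon's criterion, which chance meets in about 5% of sets. In O4+ cells these were replicate 4 for Pex5l, at a ratio of 8.19 with the others at 4.52 to 4.76, and replicate 2 for Cat, at 1.13 with the others at 2.43 to 2.70. In A2B5+ cells they were replicate 5 for Gnpat (0.669, others 0.870 to 0.918, as the mean of 2 probe sets) and replicate 5 for Pex7 (0.543, others 0.974 to 1.11). Replicate 1 stood apart for Hsd17b4 (1, others 0.867 to 0.902) and replicate 2 for Pex5 (0.884, others 0.978 to 1.00).

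Ehhadh lay below the filter and entered only the comparison with no filter, yet its O4+ ratios reached 2.65 and all exceeded the highest A2B5+ ratio of 0.815. With no filter its difference was 1.15 ± 0.28 (limma adjusted p = 0.011). Acot4 (0.41 ± 0.13, adjusted p = 0.031) and Acox3 (0.32 ± 0.10, adjusted p = 0.026) were also called higher there, at lower ratios. The low probe sets of array A as a whole lay 0.33 higher in O4+ arrays. The Acox3 difference was near that shift and the Acot4 difference little above it, so these 2 calls do not stand apart from the array scale.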

How the results depend on the processing

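Of the 20 genes called higher, 15 stayed called under all 17 alternatives, and Amacr, Ech1, Gnpat, Phyh and Pxmp2 lost the call under at least 1. The number called higher ran from 15 (arrays scaled on low probe sets, chosen after seeing the data) to 23 (no filter), and from 18 to 20 without single replicates. Without O4+ replicate 2 it was 19, where 2992 of all 11982 tested genes were called higher, in place of 3445. Apart from this setting and the array scalings, the share of all genes called is not given for the alternatives. Their counts, 23 with no filter among them, therefore cannot be set against a background. The genes added with no filter were Acot4, Acox3 and Ehhadh, and the Acox3 probe set lay near the low pattern (SD 0.034 about it). The number called lower, 1, became 2 with arrays centred (Pex13 added), 2 with array weights (Abcd2 added) and 4 scaled on low probe sets (Abcd2, Pex13 and Scp2 added), and ran from 1 to 2 without single replicates. Pex5, at 0.08 on array A, turned to -0.091 with arrays centred and -0.25 scaled on low probe sets. These scalings took off the array A shifts of 0.17 and 0.33, which exceed its difference. Phyh turned to -0.20 with array B used before array A, which is the value of its array B probe set. Why the Phyh probe sets differ was not tested. With array B first, Pex5l gave 1.21. The labels do not say that replicate numbers mark a shared litter. Deviations of same-numbered arrays correlated from 0.020 to 0.31 on array A (other pairs -0.30 to 0.21) and from -0.20 to 0.24 on array B (other pairs -0.31 to 0.23). On array A numbers 2 and 3 correlated best with their own number in both populations and number 1 in neither, so the numbers were not treated as pairs. With the replicate number as a block, 20 genes were called higher and 1 lower, and 18 probe sets on array A in place of 19. Probe sets near the low pattern carry little signal, which limits Acox2, Acox3 and the flat probe sets of Pex5 and Pex16.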

Other observations

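Some probe sets carry several symbols and were not used for any gene. The 2 shared by Pex19 and a neighbouring locus symbol were higher in O4+ cells by 0.72 ± 0.18 and 1.05 ± 0.21 (limma adjusted p = 0.0097 and 0.0028 on array A). The probe set shared by the thiolase genes Acaa1a and Acaa1b had a difference of -0.10 ± 0.20 (adjusted p = 0.70). That shared by Eci2 and Eci3 had -0.18 ± 0.32 (adjusted p = 0.66), and that shared by Acot3 and Acot4 on array B -0.17 ± 0.12 (adjusted p = 0.34).

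The probe sets of Crot differed from each other. One on array A was higher in O4+ cells by 0.39 ± 0.13 (adjusted p = 0.035), with an SD of 0.11 about the pattern of low probe sets. Another gave -0.0071 ± 0.21 (adjusted p = 0.98). The remaining one, on array B, had ratios of 0.449 to 0.459 in O4+ cells and 0.425 to 0.450 in A2B5+ cells and lay below the filter.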
